A study of Homo sapiens with 14 samples.

Results

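The HOXA-MEIS1 self-renewal programme of leukaemia was described here through 10 genes chosen by symbol: HOXA7, HOXA9, HOXA10, MEIS1, PBX3, MEF2C, SATB1, FLT3, CDK6 and MYB. All 10 genes had a row among the 15031 genes of the EOL-1 table, and 9 of them had a row among the 15025 genes of each MV4;11 table. HOXA7 was not analysed in MV4;11. The tables together hold 16336 genes.

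HOXA9 and its neighbours are homeodomain transcription factors that bind DNA together with the TALE-class homeodomain proteins MEIS1 and PBX3. In acute myeloid leukaemia driven by fusions or duplications of KMT2A (MLL), this complex and the loci it sits on stay active and keep progenitor cells dividing instead of maturing. MEF2C, SATB1, FLT3, CDK6 and MYB are loci commonly counted as its targets or partners: a MADS-box transcription factor, a chromatin organiser, a receptor tyrosine kinase, a cyclin-dependent kinase and a progenitor transcription factor.

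RNA from 2 human leukaemia cell lines went into 14 libraries, a pair for each of 7 groups. MV4;11 is an acute myeloid leukaemia line known to carry a KMT2A-AFF1 fusion and an internal tandem duplication of FLT3, and EOL-1 is an eosinophilic leukaemia line known to carry a FIP1L1-PDGFRA fusion and a KMT2A partial tandem duplication. In MV4;11, cells with a hairpin against EZH2 (shEZH2) were compared with an empty-vector control (EV), and cells with sgRNA 1 or sgRNA 5 against cMyc (sgcMyc) were compared with an sgRNA vector control (sgEV). In EOL-1, cells with an sgRNA against EZH2 (sgEZH2) were compared with a separate sgEV control. All 7 groups, controls included, received doxycycline at 1 µg/ml for 4 days. EZH2 is the histone methyltransferase of Polycomb repressive complex 2, and cMyc is the transcription factor encoded by MYC. The design asks how the transcriptome changes when either is targeted. The labels do not say whether the cells were clones or pools, or whether paired libraries of a group were grown apart. The p-values below therefore set a group difference only against the scatter between these libraries, and that scatter may be technical.

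Estimated gene counts summed to 15034533 to 16274568 per library in the hairpin comparison, 13313052 to 15043385 in the cMyc comparison and 24574102 to 30256823 in EOL-1. Levels are given as CPM (estimated counts scaled to a common library total), scaled within each table. They are not divided by gene length, so they compare a gene with itself and not with another gene. EZH2 stood at 9.75 and 9.70 CPM in shEZH2 libraries, against 73.3 and 75.8 CPM in EV libraries, and at 27.8 and 26.1 CPM in sgEZH2 libraries, against 70.7 and 70.4 CPM in sgEV libraries of EOL-1. MYC stood at 866 and 872 CPM with guide 1 and 818 and 822 CPM with guide 5, against 658 and 660 CPM in sgEV libraries. Cas9 edits need not lower the count of a transcript, so this level does not check the labels, and these are called the libraries labelled sgcMyc. CD33, PTPRC, SPI1, CEBPA and CSF3R, markers of the myeloid lineage, had reads in every library. Of 9 eosinophil markers, only RNASE2 and RNASE3 had a row in EOL-1, and 1 of the 4 with a row in MV4;11 was at 0 in the shEZH2 libraries. Mitochondrial genes took 2.79% to 2.80% of counts in shEZH2 libraries, against 2.18% to 2.22% in EV libraries. They took 3.14% to 3.44% in the libraries labelled sgcMyc, against 2.41% to 2.47% in sgEV libraries, and 1.14% in sgEZH2 libraries, against 1.05% to 1.06% in sgEV libraries of EOL-1. The mitochondrial share was thus higher than in the controls in all 3 of these sets, and its part in the members' values was not tested. In bulk RNA, fewer cells of a type and less RNA per cell cannot be told apart.

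The windows around the start sites of these genes are shown because the guides were aimed at cMyc and because the hexamer CACGTG is the E-box core that MYC-MAX dimers are known to bind. RefSeq lists 21 windows of 300 bases for the 10 genes on GRCh38.p14, from 250 bases before to 50 bases after each start site. On either strand, CACGTG was found in 4 of the 21 windows (19%), those of HOXA7, HOXA9, FLT3 and CDK6, and in 7.26% of all 35116 RefSeq windows. In the 3 windows below, all on the minus strand and written 5′ to 3′, capitals mark CACGTG and, for HOXA9 alone, also the PBX-HOX type sequence TGATTTA.
HOXA9, chr7:27165488-27165787: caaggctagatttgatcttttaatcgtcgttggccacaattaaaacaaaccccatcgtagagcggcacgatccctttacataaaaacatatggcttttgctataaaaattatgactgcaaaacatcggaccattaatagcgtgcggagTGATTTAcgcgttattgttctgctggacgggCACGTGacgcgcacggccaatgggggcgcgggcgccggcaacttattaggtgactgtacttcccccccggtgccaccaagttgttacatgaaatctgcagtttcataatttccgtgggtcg
FLT3, chr13:28100527-28100826: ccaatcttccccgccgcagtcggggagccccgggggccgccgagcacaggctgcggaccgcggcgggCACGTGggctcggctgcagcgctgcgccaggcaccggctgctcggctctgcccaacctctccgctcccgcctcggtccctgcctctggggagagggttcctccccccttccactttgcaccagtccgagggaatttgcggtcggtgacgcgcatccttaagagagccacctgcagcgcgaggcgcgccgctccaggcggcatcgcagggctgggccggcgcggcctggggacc
CDK6, chr7:92836524-92836823: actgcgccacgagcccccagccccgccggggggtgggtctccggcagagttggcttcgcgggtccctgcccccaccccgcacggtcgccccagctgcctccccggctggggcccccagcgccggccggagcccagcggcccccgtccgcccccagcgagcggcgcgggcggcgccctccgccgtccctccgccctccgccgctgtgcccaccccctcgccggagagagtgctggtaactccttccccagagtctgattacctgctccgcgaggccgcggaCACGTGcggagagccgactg
CACGTG begins 71 bases before the start site of HOXA9 and 183 bases before that of FLT3. In the window of CDK6 shown, the more upstream of its 2, it begins 30 bases after the start site. TGATTTA begins 102 bases before the HOXA9 start and was found in 1 of the 21 windows (4.76%), against 2.89% of all windows. The MEIS hexamer TGACAG was found in 4 of the 21 windows (19%), those of PBX3 and 3 of MEF2C, against 15.8% of all windows. The MYB sequence AACGG was found in 2 of the 21 (9.52%), 1 of SATB1 and 1 of CDK6, against 19.7% of all windows. The motifs do not overlap in these windows, and a match is a description of the letters only.

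After EZH2 depletion in MV4;11, MEF2C, FLT3 and SATB1 fell, PBX3 and MYB rose slightly, and HOXA9, HOXA10, MEIS1 and CDK6 did not pass the test. Calls here are adjusted p-values below 0.05 from edgeR's quasi-likelihood test with Benjamini-Hochberg adjustment over all genes tested. That is 5 of 9 members, 2 higher and 3 lower, where 27.7% of all 13591 genes tested passed, 13.4% higher and 14.2% lower. The members' median absolute log2 fold change was 0.14, against 0.17 over all genes tested. With spike-in scaling or with DESeq2, the count was 3 members, all lower, since PBX3 and MYB no longer passed. It was also 3 without the first or without the second shEZH2 library.

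In the MV4;11 libraries labelled sgcMyc, taken as the mean of both guides, FLT3, MEF2C and SATB1 fell and HOXA10 rose. That is 4 of 9 members, 1 higher and 3 lower, where 37.3% of all 13948 genes tested passed, 18.6% higher and 18.7% lower. The members' median absolute log2 fold change was 0.14, against 0.20 over all genes tested. The count was 2 with spike-in scaling (FLT3 lower, HOXA10 higher) and 2 without the first sgEV library. It was 7 without the second guide 5 library and 6 without the first.

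After EZH2 depletion in EOL-1, MEF2C and SATB1 rose more than 2-fold, FLT3 and MYB rose slightly, and CDK6 fell. That is 5 of 10 members, 4 higher and 1 lower, where 26.9% of all 13890 genes tested passed, 15.1% higher and 11.8% lower. The members' median absolute log2 fold change was 0.22, against 0.13 over all genes tested. HOXA7, HOXA9, HOXA10, MEIS1 and PBX3, the HOXA and TALE-class genes of the list, all missed the threshold in EOL-1.

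**Figure D1:**
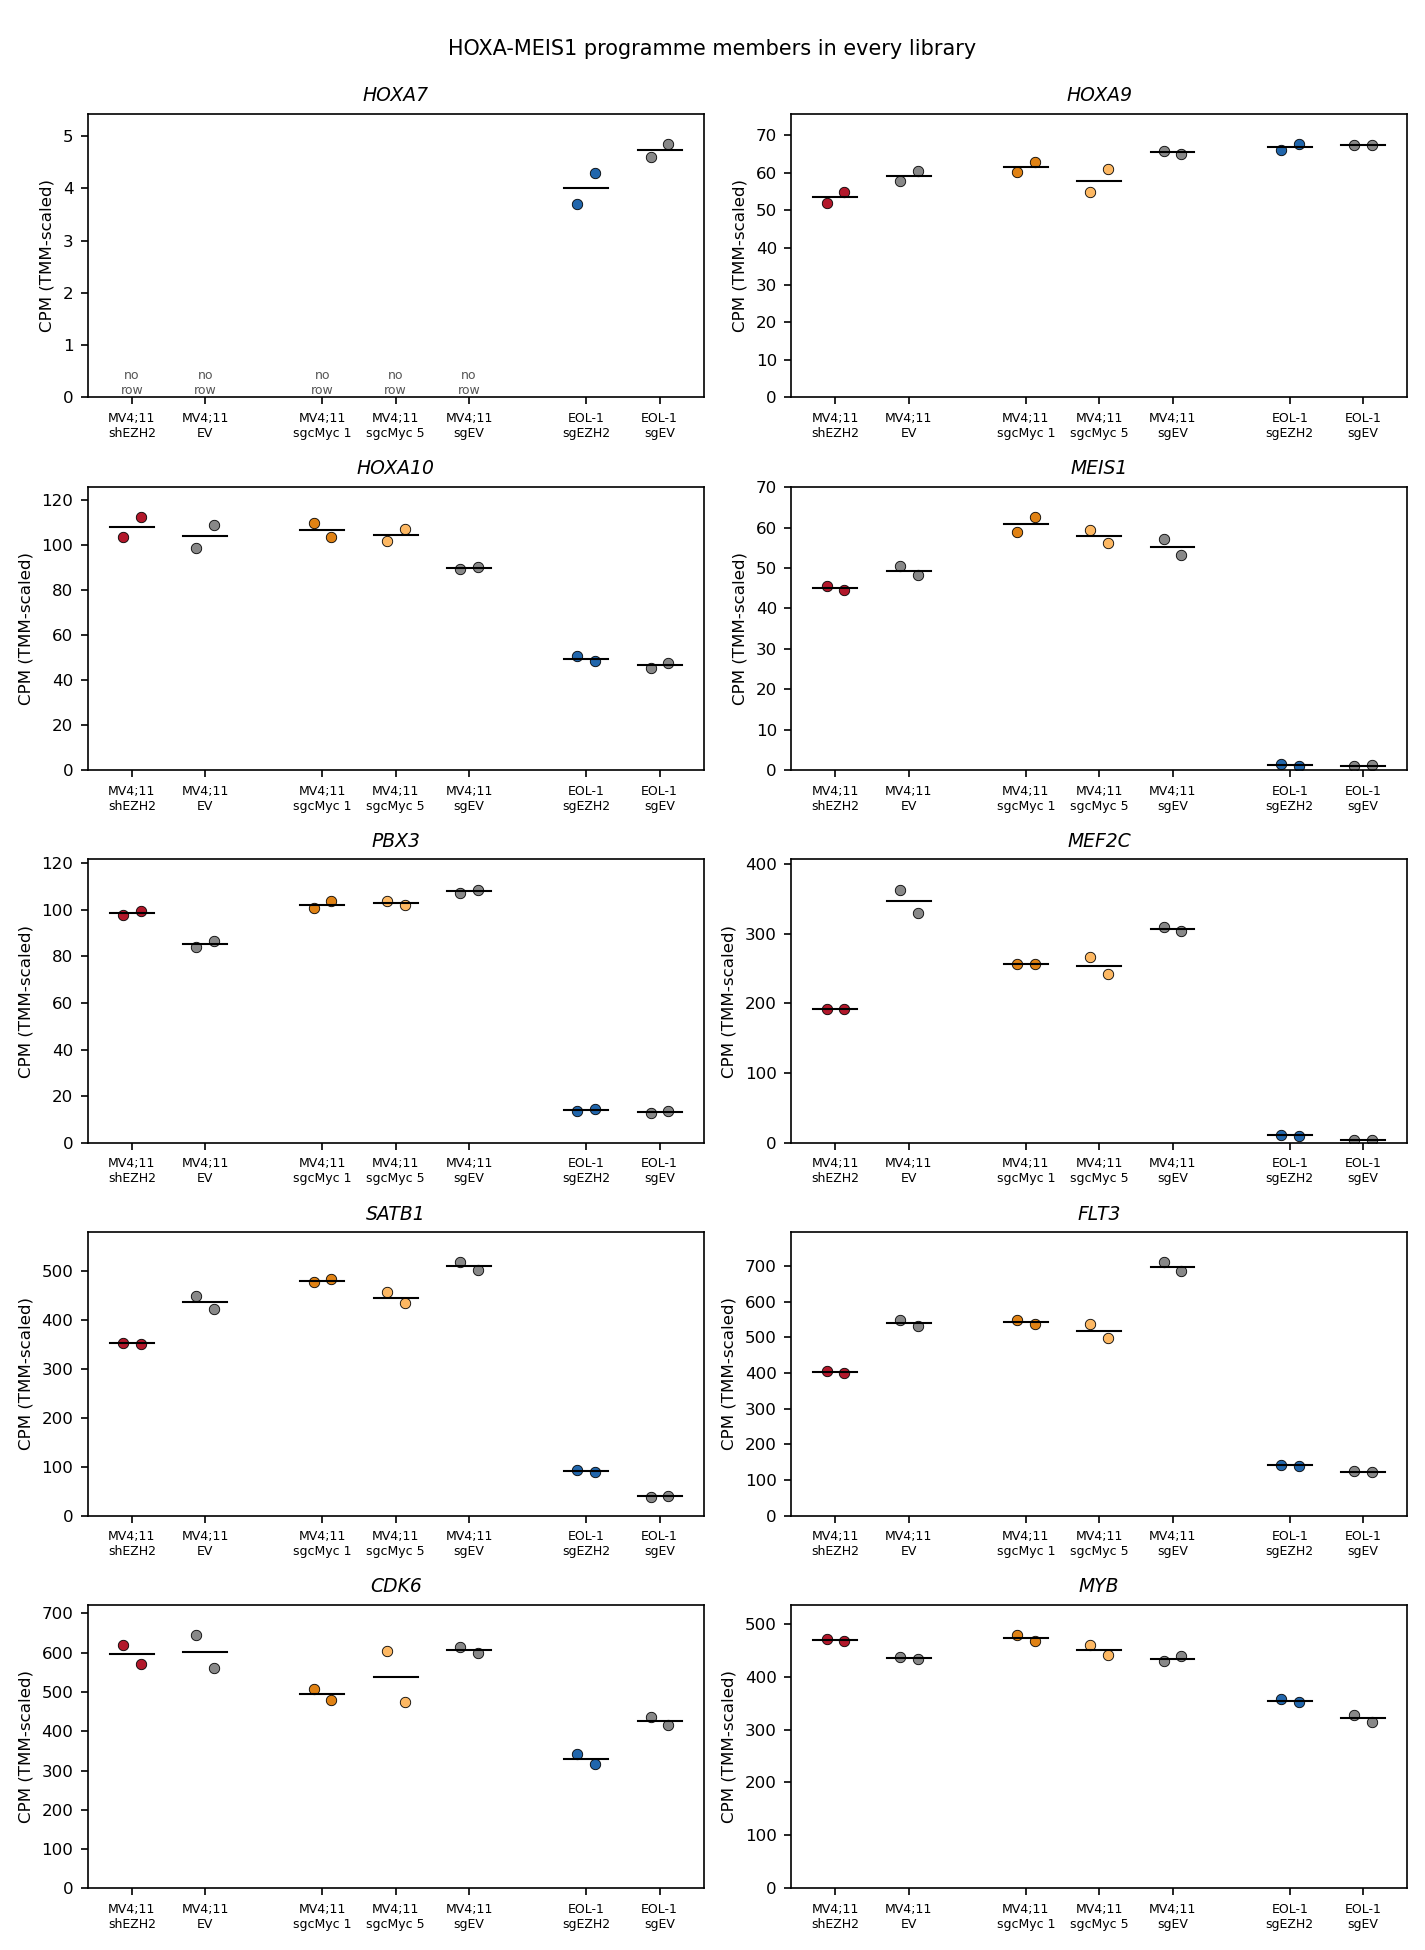
Level of each of the 10 genes in CPM (vertical axis, each panel on its own scale) in each of the 14 libraries (HOXA7 in EOL-1 only), by group, with each control right of the groups set against it. Each dot is a library and each bar the mean of 2 libraries. MEF2C stands at 192 CPM in shEZH2 and 346 CPM in EV libraries of MV4;11, and at 10.7 CPM in sgEZH2 and 3.68 CPM in sgEV libraries of EOL-1.

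HOXA9, the homeodomain factor that gives the programme its name, had 52.0 and 55.0 CPM in shEZH2 libraries, against 57.7 and 60.3 CPM in EV libraries. It had 60.1 and 62.9 CPM with guide 1 and 54.7 and 61.0 CPM with guide 5, against 65.8 and 65.1 CPM in sgEV libraries. In EOL-1 it had 66.0 and 67.6 CPM in sgEZH2 libraries, against 67.4 and 67.3 CPM in sgEV libraries. Every shEZH2 library and every library labelled sgcMyc was below its controls, while the EOL-1 groups overlapped. The log2 fold change was -0.14 ± 0.06 (SE) for shEZH2 and -0.13 ± 0.06 for sgcMyc, with adjusted p of 0.0997 and 0.0889, so neither passed. In EOL-1 it was -0.01 (95% interval -0.10 to 0.08, adjusted p = 0.876). Without the first EV library the shEZH2 value passed, with an adjusted p of 0.0431. The HOXA9 window shown above holds both CACGTG and TGATTTA, and binding to either was not tested.

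HOXA10, a neighbour of HOXA9 in the same cluster, had 104 and 113 CPM in shEZH2 libraries, against 98.9 and 109 CPM in EV libraries, and these groups overlapped. It had 110 and 104 CPM with guide 1 and 102 and 107 CPM with guide 5, against 89.5 and 90.4 CPM in sgEV libraries. Both guides thus stood above both controls. The log2 fold change for sgcMyc was 0.23 ± 0.05 (SE, adjusted p = 0.0023), and the side-by-side values against the shared sgEV libraries were 0.25 for guide 1 (adjusted p = 0.0042) and 0.22 for guide 5 (adjusted p = 0.0103). Without the first sgEV library the mean of the guides had an adjusted p of 0.0501, guide 1 of 0.0586 and guide 5 of 0.0950. Guide 1 also lost its call without the first guide 1 library (0.0711), and guide 5 without the second sgEV library (0.0773) and with DESeq2 (0.0587). With spike-in scaling the guide 5 value was 0.36. In EOL-1, HOXA10 had 50.7 and 48.4 CPM in sgEZH2 libraries, against 45.4 and 47.6 CPM in sgEV libraries (adjusted p = 0.195). None of the 14 estimated counts of HOXA10 was whole to within 0.01, so each holds reads that the counting did not assign to HOXA10 alone. Whole counts were also incomplete for HOXA7 (1 of 4), MYB (6 of 14), MEIS1 (7 of 14), HOXA9 and CDK6 (8 of 14 each) and MEF2C (11 of 14). HOXA10-AS has a row of its own with 178 to 246 estimated counts per library, strand use is not stated, and sense and antisense reads cannot be told apart.

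HOXA7, the third HOXA gene of the list, was read in EOL-1 at 3.71 and 4.30 CPM in sgEZH2 libraries, against 4.61 and 4.85 CPM in sgEV libraries. Both sgEZH2 libraries were lower, on 99.3 to 148 estimated counts per library. The log2 fold change was -0.25 with a 95% interval of -0.55 to 0.06 and an adjusted p of 0.239, so a difference was not detectable at this depth.

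MEIS1, the TALE partner that raises the leukaemic activity of HOXA9, had 45.6 and 44.5 CPM in shEZH2 libraries, against 50.4 and 48.3 CPM in EV libraries. It had 59.0 and 62.6 CPM with guide 1 and 59.3 and 56.2 CPM with guide 5, against 57.0 and 53.1 CPM in sgEV libraries. The shEZH2 libraries were both below EV, whereas 1 guide 5 library lay between the sgEV libraries. Neither difference passed (log2 fold change -0.13, adjusted p = 0.127, for shEZH2, and 0.11, adjusted p = 0.177, for sgcMyc). In EOL-1, MEIS1 had only 1.49 and 1.08 CPM in sgEZH2 libraries, against 0.91 and 1.15 CPM in sgEV libraries. These are 25.0 to 40.0 estimated counts per library, and the interval of the log2 fold change, -0.34 to 0.98, was the widest of the 10 members in EOL-1.

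PBX3, which forms heterodimers with HOXA9 and with MEIS1, had 97.9 and 99.4 CPM in shEZH2 libraries, against 84.1 and 86.7 CPM in EV libraries. Both shEZH2 libraries were above both controls, and the level was 115.5% of EV (log2 fold change 0.21 ± 0.05, SE, adjusted p = 0.00924). The call was lost with spike-in scaling (adjusted p = 0.215), with DESeq2 (0.0800), and without the first (0.0601) or second (0.0930) shEZH2 library. PBX3 had 101 and 104 CPM with guide 1 and 104 and 102 CPM with guide 5, against 107 and 109 CPM in sgEV libraries. The guides were lower in all 4 libraries, but the log2 fold change of -0.07 did not pass (adjusted p = 0.212), and spike-in scaling turned it to 0.043. In EOL-1, PBX3 had 13.5 and 14.5 CPM in sgEZH2 libraries, against 12.6 and 13.7 CPM in sgEV libraries, and the groups overlapped (adjusted p = 0.491).

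MEF2C, a transcription factor tied to the self-renewal of KMT2A-rearranged leukaemia, changed most among the members in both EZH2 comparisons. It had 192 and 192 CPM in shEZH2 libraries, against 363 and 329 CPM in EV libraries. The level was 55.4% of EV, a log2 fold change of -0.85 ± 0.05 (SE, adjusted p = 4.75e-07), and the groups were far apart. In EOL-1 it had 11.3 and 10.1 CPM in sgEZH2 libraries, against 3.62 and 3.73 CPM in sgEV libraries. This was 2.91-fold higher, with a log2 fold change of 1.54 ± 0.12 (SE, adjusted p = 1.39e-08), on 99.0 to 303.0 estimated counts per library. On the log2 values the authors deposited, which compress differences at low counts, limma gave 0.73 for the same comparison (adjusted p = 2.92e-08). In the libraries labelled sgcMyc, MEF2C had 257 and 256 CPM with guide 1 and 266 and 241 CPM with guide 5, against 309 and 303 CPM in sgEV libraries. All 4 guide libraries were below both controls (log2 fold change -0.26 ± 0.04, SE, adjusted p = 4.59e-04). With spike-in scaling this value was -0.15 and did not pass (adjusted p = 0.225). MEF2C-AS1 has a row in MV4;11 with 29.0 to 53.0 estimated counts per library.

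SATB1, which folds chromatin into loops and is expressed in progenitors and lymphocytes, had 353 and 352 CPM in shEZH2 libraries, against 450 and 424 CPM in EV libraries. The level was 80.7% of EV (log2 fold change -0.31 ± 0.04, SE, adjusted p = 2.29e-04), with no overlap. In EOL-1 it had 93.5 and 88.7 CPM in sgEZH2 libraries, against 38.2 and 40.1 CPM in sgEV libraries. This was 2.33-fold higher, with a log2 fold change of 1.22 ± 0.05 (SE, adjusted p = 7.74e-13). Its antisense partner SATB1-AS1 had 22.0 and 26.0 estimated counts in sgEZH2 libraries, against 3.0 and 5.0 in sgEV libraries of EOL-1. In MV4;11 it had 243 and 219 in shEZH2 libraries, against 362 and 347 in EV libraries. With the cMyc guides SATB1-AS1 was higher in these estimated counts, which are not scaled for depth and carry no test. It had 566 and 571 with guide 1 and 484 and 521 with guide 5, against 439 and 405 in sgEV libraries. SATB1 had 478 and 485 CPM with guide 1 and 457 and 435 CPM with guide 5, against 519 and 503 CPM in sgEV libraries. All 4 guide libraries were lower, and guide 5 passed on its own (log2 fold change -0.20, adjusted p = 0.00622) while guide 1 did not (-0.09, adjusted p = 0.177). The guide 5 call was lost with spike-in scaling (0.730) and without the first (0.116) or second (0.0561) sgEV library. For the mean of the guides the log2 fold change was -0.14 ± 0.04 (SE, adjusted p = 0.014). That call was lost with spike-in scaling (adjusted p = 0.830) and without either sgEV library (0.213 and 0.0931) or either guide 1 library (0.0724 and 0.0597).

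FLT3, the receptor tyrosine kinase of early progenitors, had 404 and 399 CPM in shEZH2 libraries, against 549 and 531 CPM in EV libraries. It had 547 and 538 CPM with guide 1 and 536 and 499 CPM with guide 5, against 710 and 685 CPM in sgEV libraries. The shEZH2 libraries and those labelled sgcMyc were below their controls throughout, at 74.4% of EV and 76.0% of sgEV. The log2 fold changes were -0.43 ± 0.04 for shEZH2 (adjusted p = 1.32e-05) and -0.40 ± 0.04 for sgcMyc (SE, adjusted p = 1.21e-05), and by guide -0.36 for guide 1 and -0.43 for guide 5, the last at -0.28 with spike-in scaling. In EOL-1 the direction was the opposite. FLT3 had 142 and 140 CPM in sgEZH2 libraries, against 124 and 122 CPM in sgEV libraries (log2 fold change 0.20 ± 0.04, SE, adjusted p = 4.89e-04). Its window, shown above, holds CACGTG, whereas no window of MEF2C or SATB1, which also fell with sgcMyc, holds it. Binding of MYC-MAX was not tested.

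CDK6, the D-cyclin kinase that drives entry into the cell cycle, had 621 and 572 CPM in shEZH2 libraries, against 645 and 561 CPM in EV libraries. These groups overlapped, and the log2 fold change was -0.02 (95% interval -0.18 to 0.15, adjusted p = 0.899). In EOL-1 it had 343 and 317 CPM in sgEZH2 libraries, against 435 and 416 CPM in sgEV libraries, which is 77.5% of the control (log2 fold change -0.37 ± 0.04, SE, adjusted p = 1.5e-06). CDK6 had 509 and 480 CPM with guide 1 and 604 and 474 CPM with guide 5, against 614 and 599 CPM in sgEV libraries. The first guide 5 library lay between the controls and the second far below, and the log2 fold change of -0.23 did not pass (adjusted p = 0.106). It passed without the first guide 5 library (adjusted p = 6.44e-10), without the second (1.0e-04) and without the robust step (0.0422).

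MYB, the transcription factor that maintains progenitor identity, had 471 and 467 CPM in shEZH2 libraries, against 437 and 434 CPM in EV libraries. Both shEZH2 libraries were higher, at 107.8% of EV (log2 fold change 0.11 ± 0.04, SE, adjusted p = 0.0485), but the call held in only 4 of 12 alternatives. It was lost, for example, with RLE size factors (adjusted p = 0.0501), with DESeq2 (0.128), with spike-in scaling (0.597) and without either shEZH2 library (0.381 and 0.298). In EOL-1 MYB had 357 and 352 CPM in sgEZH2 libraries, against 328 and 314 CPM in sgEV libraries. This too was higher in both libraries (log2 fold change 0.14 ± 0.03, SE, adjusted p = 0.0028), and was lost without the second sgEV library (0.175). MYB had 478 and 467 CPM with guide 1 and 460 and 441 CPM with guide 5, against 429 and 439 CPM in sgEV libraries, all 4 guide libraries above both controls, and did not pass (log2 fold change 0.09, adjusted p = 0.0949).

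**Figure D2:**
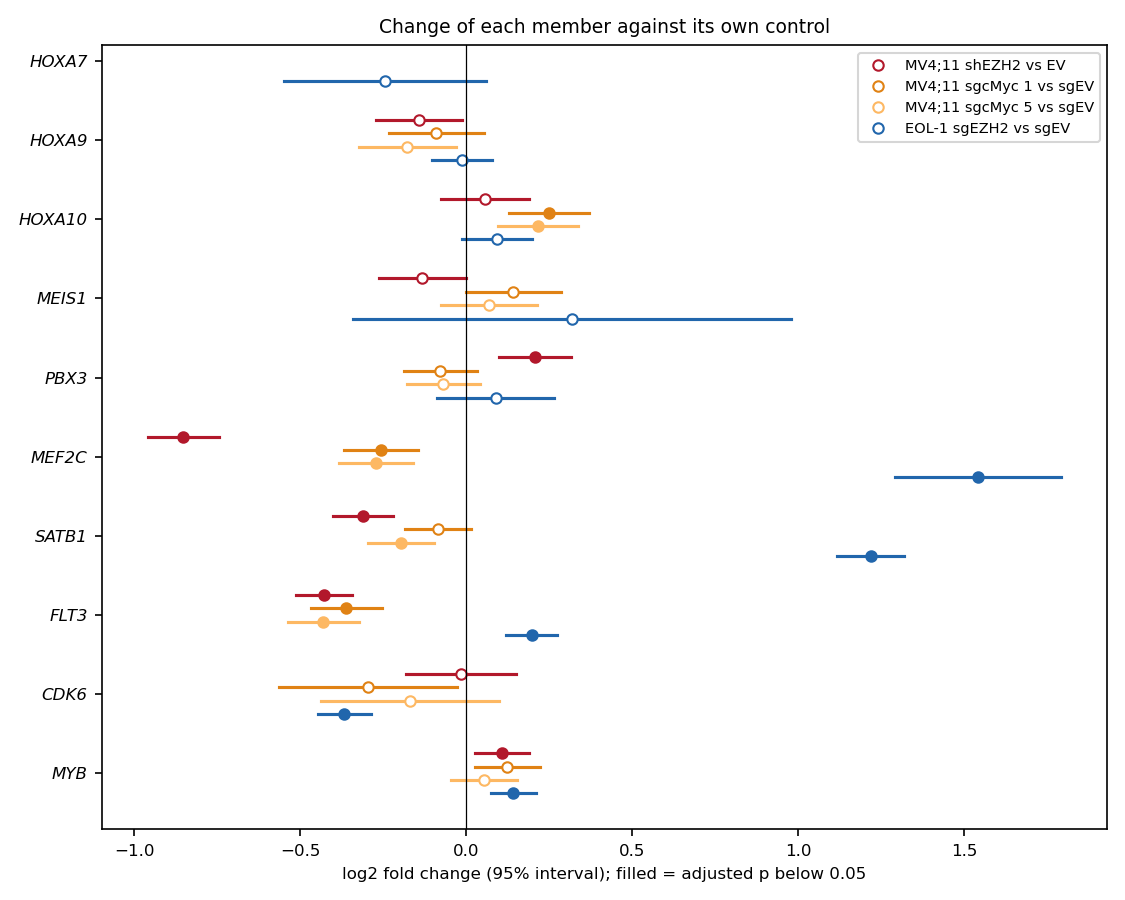
Log2 fold change of each member with its 95% interval (horizontal axis) in 4 comparisons: shEZH2 against EV, guide 1 against sgEV and guide 5 against sgEV in MV4;11, and sgEZH2 against sgEV in EOL-1. Filled points passed edgeR's adjusted p of 0.05. MEF2C lies at -0.85 after EZH2 depletion in MV4;11 and at 1.54 in EOL-1, while HOXA9 passed in none of the 4.

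Guides 1 and 5 share the sgEV libraries, so their values were set side by side and the difference between the guides was tested directly. Against sgEV, 3 of 9 members passed with guide 1 (FLT3 and MEF2C lower, HOXA10 higher), where 32.2% of all genes passed, 16.2% higher and 16% lower. That count was 1 without the first sgEV library, 2 without the first guide 1 library and 7 without either guide 5 library. With guide 5, 4 of 9 passed (HOXA10 higher, FLT3, MEF2C and SATB1 lower), where 31.2% of all genes passed, 15.7% higher and 15.5% lower. That count was 2 with spike-in scaling and 2 without either sgEV library. The MEF2C call with guide 1 was lost with spike-in scaling (adjusted p = 0.248) and without the first sgEV library (0.0518), and that with guide 5 was lost with spike-in scaling (0.410). Guide 5 minus guide 1 gave no call in edgeR or in DESeq2 among the 9 members, where 0.409% of all genes passed, 0.0789% higher and 0.33% lower. At an unadjusted p below 0.05 there was 1 member, SATB1 (-0.11, 95% interval -0.21 to -0.01). For MEF2C the interval of that difference was -0.13 to 0.10 and for FLT3 -0.18 to 0.04. The 2 guide 5 libraries differed from each other more than the replicates of any other group, with a chi-square per degree of freedom of 5.47, the top of a range that began at 1.47 over the 7 groups. Without the first guide 5 library, 2 members and 872 genes passed for guide 5 minus guide 1, and without the second, 1 member and 365 genes, against 57 genes with all libraries.

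The effect of EZH2 depletion differed between the lines for some of these genes. The difference, MV4;11 effect minus EOL-1 effect, was tested as an interaction in a joint edgeR fit over both tables. It passed for 4 of 9 members, 1 higher and 3 lower, where 26.5% of all 13543 genes passed, 12.5% higher and 14.1% lower. The log2 difference was -2.39 ± 0.13 (SE) for MEF2C (adjusted p = 2.79e-09), -1.52 ± 0.06 for SATB1 (1.55e-10) and -0.62 ± 0.05 for FLT3 (1.6e-07). Each of these 3 genes fell in MV4;11 and rose in EOL-1. For CDK6, which fell in EOL-1 alone, the difference was 0.36 ± 0.11 (adjusted p = 0.0475), and this call held in 8 of 14 alternatives. It was lost without the second EV library (0.0673), the first shEZH2 library (0.0972), either sgEV library of EOL-1 (0.102 and 0.0601) or either sgEZH2 library (0.0535 and 0.135). The HOXA and TALE-class genes did not pass: HOXA9 -0.12 (adjusted p = 0.225), HOXA10 -0.03 (0.852), PBX3 0.13 (0.325) and MEIS1 -0.44 (0.205), the last with an interval of -0.95 to 0.07. MYB did not pass either (-0.03, adjusted p = 0.741). The lines also differ in the tool used, a hairpin in MV4;11 and an sgRNA in EOL-1. They differ in the EZH2 transcript level too, 13.1% of EV and 38.3% of sgEV. Since Cas9 edits need not lower the count of a transcript, these shares do not show how much EZH2 protein was left. Tool and EZH2 level cannot be told apart from the line.

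In MV4;11, the effect of EZH2 depletion minus that of sgcMyc was tested in the same way, with separate controls on each side. The tool (hairpin or sgRNA) and the vector control change together with the target here, and these cannot be told apart. It passed for 4 of 9 members, 1 higher and 3 lower, where 32.2% of all 14433 genes passed, 15.1% higher and 17.1% lower. MEF2C fell further with shEZH2 than with sgcMyc (log2 difference -0.60 ± 0.07, SE, adjusted p = 1.04e-05). PBX3 (0.27 ± 0.06, adjusted p = 0.00339), MEIS1 (-0.25 ± 0.08, adjusted p = 0.0344) and SATB1 (-0.18 ± 0.06, adjusted p = 0.0251) also differed. PBX3 averaged 98.6 CPM in shEZH2 libraries, 102 CPM with guide 1 and 103 CPM with guide 5. Its control means were further apart, 85.4 CPM in EV and 108 CPM in sgEV libraries. The MEIS1 and SATB1 calls each held in 11 of 17 alternatives. The MEIS1 call was lost with DESeq2 (0.242) and without the first EV (0.111), either shEZH2 (0.0633 and 0.101), the second sgEV (0.156) or the second guide 1 library (0.0758). The SATB1 call was lost without the first EV (0.115), either shEZH2 (0.0660 and 0.0742), either sgEV (0.0564 and 0.121) or the second guide 1 library (0.0588). With spike-in scaling these differences were -0.40 for MEIS1 and -0.34 for SATB1. The PBX3 call was lost with spike-in scaling (0.448). For FLT3 the difference was -0.04 with a 95% interval of -0.16 to 0.09.

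**Figure D3:**
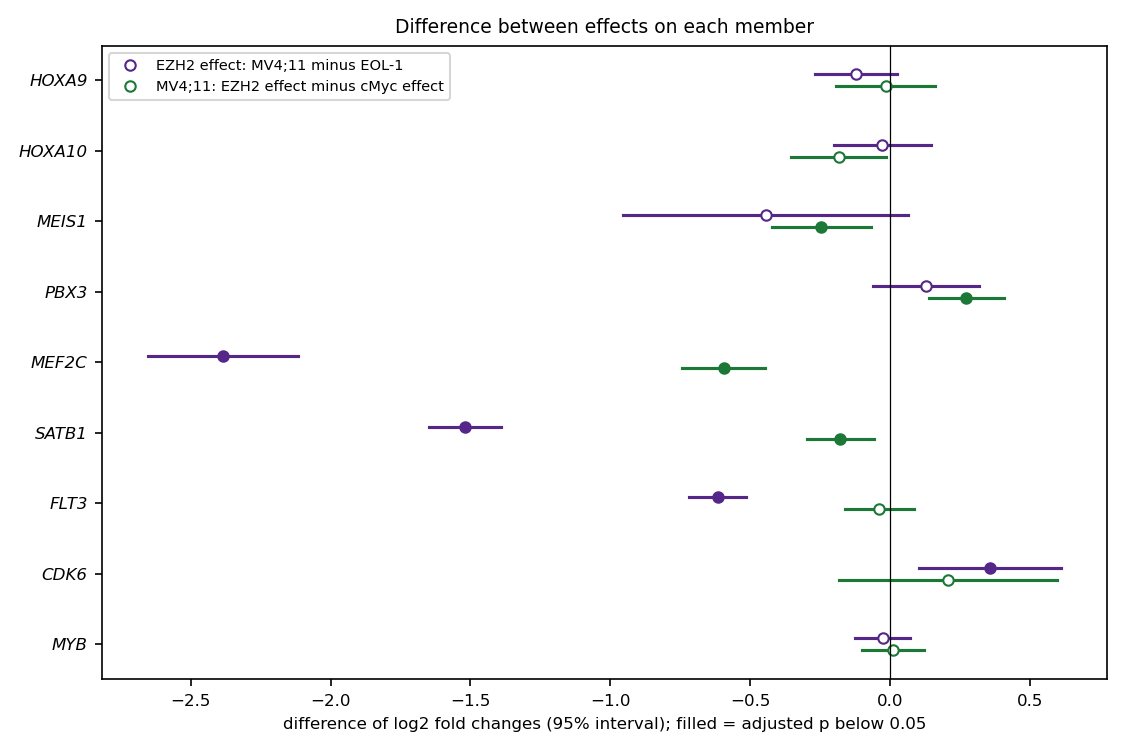
Differences between effects on the log2 scale with 95% intervals (horizontal axis) for the 9 members read in MV4;11: the EZH2 effect in MV4;11 minus that in EOL-1, and the EZH2 effect minus the cMyc effect in MV4;11. Filled points passed edgeR's adjusted p of 0.05. MEF2C lies at -2.39 and -0.60, and FLT3 at -0.62 and -0.04.

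Set side by side across the lines, MEF2C, MEIS1, SATB1, PBX3 and FLT3 had much lower levels in EOL-1 than in MV4;11, and HOXA9 did not. The tables were normalised separately, and none holds both lines, so these levels carry no test. MEF2C averaged 346 ± 23.7 CPM in EV and 306 ± 4.35 CPM in sgEV libraries of MV4;11, and 3.68 ± 0.08 CPM in sgEV libraries of EOL-1 (SD, n = 2 each). MEIS1 averaged 49.3 ± 1.45, 55.1 ± 2.77 and 1.03 ± 0.16 CPM in the same 3 groups. PBX3 averaged 85.4 ± 1.88, 108 ± 1.06 and 13.1 ± 0.81 CPM in them. SATB1 averaged 437 ± 18.7, 511 ± 10.9 and 39.1 ± 1.38 CPM, and FLT3 540 ± 13.3, 698 ± 18.0 and 123 ± 1.63 CPM. HOXA10 (46.5 ± 1.60 CPM), CDK6 (426 ± 13.3 CPM) and MYB (321 ± 9.62 CPM) were also lower in EOL-1 sgEV libraries than in both MV4;11 controls. HOXA9, in contrast, had its highest mean in EOL-1, 67.4 ± 0.03 CPM in sgEV libraries, beside 59.0 ± 1.88 CPM in EV and 65.4 ± 0.48 CPM in sgEV libraries of MV4;11. In the order of group means, MEF2C had a single overlap between neighbours, guide 1 (257 ± 0.42 CPM) with guide 5 (254 ± 17.4 CPM). For CDK6 all 5 MV4;11 groups overlapped their neighbours. For HOXA10 the shEZH2, guide 1, guide 5 and EV groups overlapped in a chain from 108 to 104 CPM. For SATB1 the guide 5 and EV groups overlapped, and for FLT3 guide 1, EV and guide 5 did. For MYB the overlaps were guide 1 with shEZH2 and EV with sgEV. For HOXA9, MEIS1 and PBX3 the EOL-1 groups overlapped each other. Within MV4;11, guide 1, EV, guide 5 and shEZH2 overlapped in turn for HOXA9, guide 1, guide 5 and sgEV for MEIS1, and the guides for PBX3. The EV and sgEV control groups of MV4;11 themselves stood apart for HOXA9, HOXA10, MEIS1, PBX3, MEF2C, SATB1 and FLT3. For CDK6 and MYB these control groups overlapped.

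The pathway around the members was read from lists of related genes, with calls from the same edgeR fits. Where genes are low, the log2 values the authors deposited gave smaller differences, such as -0.37 for HOXA13 after shEZH2, -0.39 for MLLT3, -0.89 for CCND1 and 0.30 for KIT with sgcMyc, and 0.48 for HOXB7 and 0.38 for ELL2 in EOL-1.

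Among the other genes of the HOXA cluster and its flanks, 12 in all, 1 of 5 tested after shEZH2, 2 of 4 with sgcMyc and 3 of 8 after sgEZH2 passed, where 27.7%, 37.3% and 26.9% of all genes tested did. After shEZH2 the gene that passed was lower, HOXA13 (log2 fold change -1.82), a call that held in 5 of 11 alternatives and was lost without the first EV (adjusted p = 0.180) or first shEZH2 library (0.237). Without the second shEZH2 library it was -3.35. With sgcMyc, SKAP2, an adaptor protein gene flanking the cluster, was higher (0.32) and HOXA11 lower (-0.45) of 4 tested, and the HOXA11 call was lost with spike-in scaling (adjusted p = 0.128), with DESeq2 (0.240), and without the first (0.0972) or second (0.129) sgEV or the second guide 1 library (0.0622). After sgEZH2 in EOL-1, 3 of 8 were higher and none lower, among them SKAP2 at 0.29 and HOXA11 at 0.48. DESeq2 gave an adjusted p of 0.0544 for HOXA11. Of 18 genes of the other HOX clusters, HOXB4 was higher after shEZH2 (0.43) and HOXB7 after sgEZH2 (1.70), 1 of 4 and 1 of 3 tested. None of 5 passed with sgcMyc. The HOXB4 call was lost with spike-in scaling (adjusted p = 0.114) and DESeq2 (0.284), and without the second EV or second shEZH2 library (0.124 and 0.156).

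Of the TALE-class relatives and PBX regulators, 3 of 6 were higher and 1 lower after shEZH2, 2 and 2 of 7 with sgcMyc, and 1 and 1 of 6 in EOL-1. The shares of all genes tested that passed were 27.7%, 37.3% and 26.9%, in that order. PBXIP1, which binds PBX proteins and keeps them from DNA, fell after shEZH2 (-0.85) and rose with sgcMyc (0.31). The difference between these effects was -1.17 ± 0.10 (SE, adjusted p = 6.24e-07). MEIS2, a paralogue of MEIS1, rose after shEZH2 (0.54). TGIF1 and TGIF2, TALE-class repressors, were at 0.30 and 0.28 after shEZH2 and at -0.28 and -0.21 with sgcMyc. All 4 of those calls were lost with spike-in scaling (adjusted p = 0.145, 0.114, 0.168 and 0.471) and with DESeq2. For shEZH2 that of TGIF1 was also lost without the second EV (0.0530) or second shEZH2 library (0.142), and that of TGIF2 without the first shEZH2 library (0.0623). For sgcMyc they were lost without the second sgEV library (0.0570 and 0.0787), and that of TGIF2 also without the first sgEV (0.237) or first guide 1 library (0.0945). In EOL-1, MEIS2 (-0.15) and PBXIP1 (0.24) passed in edgeR and not in DESeq2 (adjusted p = 0.244 and 0.338). Both were lost without the first sgEV (0.235 and 0.0897) or the second sgEV library (0.0817 and 0.147), and PBXIP1 without the second sgEZH2 library (0.164).

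The cofactors of KMT2A fusions were read in full, 21 of 21. After shEZH2 none was higher and 3 were lower, MLLT1 (-0.34), CDK9 (-0.24) and ELL (-0.20). CDK9 lost its call with DESeq2 (adjusted p = 0.0830) and without the first shEZH2 library (0.150). ELL lost it with spike-in scaling (0.0943), with DESeq2 (0.265), and without the first EV (0.0661) or either shEZH2 library (0.121 and 0.145). With sgcMyc 1 was higher and 8 lower, among them DOT1L (-0.49), the H3K79 methyltransferase, PSIP1 (-0.51), which tethers menin to chromatin, and MLLT3 (-1.25). In EOL-1 1 was higher, the elongation factor ELL2 (0.99), and 9 were lower, among them KMT2A itself (-0.72), PSIP1 (-0.24) and DOT1L (-0.26). Over all genes tested, 27.7% passed after shEZH2, 37.3% with sgcMyc and 26.9% in EOL-1. With spike-in scaling the sgcMyc counts of cofactors were 1 higher and 3 lower. MLLT3 was lost without the first sgEV library (0.0746).

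Of 20 further targets of the programme, 3 of 12 tested were higher and 2 lower after shEZH2, 3 and 4 of 12 with sgcMyc, and 6 and 1 of 14 in EOL-1. Beside these counts, 27.7%, 37.3% and 26.9% of all genes tested passed. SOX4 (0.42), BCL2 (0.55) and RUNX2 (0.41) rose after shEZH2, the first a progenitor transcription factor and the second an inhibitor of apoptosis, and ID2 fell (-0.50). With sgcMyc, the kinase SYK (0.48) and the receptor KIT (0.81) rose, and SOX4 (-0.26) and RUNX2 (-0.30) fell. Neither SOX4 nor RUNX2 passed with spike-in scaling (adjusted p = 0.177 and 0.241), where 3 targets were higher and none lower, and RUNX2 was also lost without the second sgEV library (0.0860). The KIT call was lost with DESeq2 (0.0982) and without the second sgEV library (0.0715). In EOL-1, SYK (0.44), IGF1R (0.49), ID2 (0.32) and LMO2 (0.17) rose, the last 2 losing their call with DESeq2 (adjusted p = 0.0641 and 0.0721), and LMO2 without the first sgEV library (0.111). SOX4 differed between shEZH2 and sgcMyc by 0.67 ± 0.06 (SE, adjusted p = 3.58e-07).

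Downstream of FLT3, 2 of 14 genes were higher and 4 lower after shEZH2, 2 and 6 of 14 with sgcMyc, and 3 and 3 of 15 in EOL-1. Among all genes tested, 27.7%, 37.3% and 26.9% passed in the same order. PIM1, a kinase induced by STAT5, fell in all 3 comparisons, by -0.49 after shEZH2, -0.38 with sgcMyc and -0.27 in EOL-1. PIM2 fell after shEZH2 (-0.32) and with sgcMyc (-0.67). STAT5A, the transcription factor that FLT3 with its tandem duplication activates, fell after shEZH2 (-1.04). The adaptor GAB2 was higher after shEZH2 (0.35) and lower with sgcMyc (-0.47), with a difference of 0.81 ± 0.08 (SE, adjusted p = 1.71e-06). The shEZH2 call of GAB2 was lost with spike-in scaling (0.0632). In EOL-1, SPRED1, an inhibitor of RAS signalling, rose by 4.22 on the log2 scale, and by 0.88 on the authors' deposited log2 values, and PTPN11 (-0.21) and BCL2L1 (-0.30) fell. PTPN11 also fell with sgcMyc (-0.24), a call lost with spike-in scaling (adjusted p = 0.416) and without the second sgEV library (0.132).

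Among the cyclins, inhibitors and substrates that work with CDK6, 1 of 13 was higher and 7 lower after shEZH2, 2 and 6 of 14 with sgcMyc, and 2 and 6 of 11 in EOL-1. All genes tested passed at 27.7%, 37.3% and 26.9%. CDK4, the close relative of CDK6, was at -0.19 after shEZH2 and at -0.19 in EOL-1, in EOL-1 at -0.12 without the first sgEZH2 library. The shEZH2 call was lost with spike-in scaling (adjusted p = 0.0598) and without either shEZH2 library (0.0567 and 0.0894). The inhibitors CDKN2D (-0.94) and CDKN2C (-0.34) and the retinoblastoma relative RBL1 (-0.32) fell after shEZH2. With sgcMyc the D-type cyclins CCND1 (-1.95) and CCND2 (-0.93) fell, as did the inhibitors CDKN2B (-0.91) and CDKN2A (-0.29). The CDKN2A call was lost with spike-in scaling (0.0723) and without the second sgEV library (0.0574). In EOL-1, CCND2 (3.44) and the inhibitor CDKN1A (1.65) rose and CDKN2C fell (-0.20), and CCND2 stood at 1.26 on the authors' deposited log2 values. CCND2 differed between the lines by -3.78 ± 0.21 (SE, adjusted p = 3.83e-09).

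Relatives and binding partners of MEF2C, SATB1 and MYB split likewise, with 3 of 9 higher and 2 lower after shEZH2, 3 and 4 of 10 with sgcMyc, and 2 and 3 of 9 in EOL-1. For all genes tested the shares that passed were 27.7%, 37.3% and 26.9%. HDAC9, a class IIa deacetylase that binds MEF2 proteins, fell after shEZH2 (-1.10) and with sgcMyc (-0.88) and rose in EOL-1 (0.69). Its difference between the lines was -1.78 ± 0.16 (SE, adjusted p = 1.21e-06), and that of MEF2A -0.70 ± 0.10 (adjusted p = 8.66e-05). MEF2A fell with sgcMyc (-0.85) and rose in EOL-1 (0.65). HDAC4 rose after shEZH2 (0.40) and with sgcMyc (0.36), the first lost with spike-in scaling (adjusted p = 0.0555), and HDAC5 fell after shEZH2 (-0.26), a call lost without the first shEZH2 library (0.139). MYBL2, a cell-cycle relative of MYB, was at 0.29 with sgcMyc and at -0.14 in EOL-1, where the call was lost without the second sgEV library (0.105), and HDAC7 fell in EOL-1 (-0.33).

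Markers of myeloid maturation moved beside the members, and their part in the members' values was not tested. In the libraries labelled sgcMyc, 12 of 15 tested markers rose and 2 fell, with a median log2 fold change of 1.20. Their summed level was 4473 to 4495 CPM with guide 1 and 4058 to 4190 CPM with guide 5, against 630 to 642 CPM in sgEV libraries. LYZ (4.50), S100A9 (7.24), CD36 (1.78) and CD68 (1.32) were among those that rose, and S100A9 stood at 1.96 on the authors' deposited log2 values. In EOL-1, 14 of 17 rose and 1 fell after sgEZH2, with a median of 0.98 and sums of 2201 to 2243 CPM in sgEZH2 libraries, against 528 to 537 CPM in sgEV libraries, with LYZ at 3.05 and CSF1R at 3.76. After shEZH2 in MV4;11, 1 of 13 rose, LYZ (1.37), and 8 fell, among them FCGR1A (-1.59), CD68 (-0.52) and CYBB (-2.26). There the median was -0.65, while the sum was higher, 636 to 646 CPM in shEZH2 libraries, against 399 to 428 CPM in EV libraries. No maturation marker with a row was at 0 in a whole group, and the share of all genes called in each comparison is given above.

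Granule genes of myeloid progenitors rose in all 3 comparisons, 5 of 8 with 1 lower after shEZH2, 7 of 8 with sgcMyc and 7 of 7 in EOL-1, with none lower in the last 2. Passing shares over all genes tested were 27.7%, 37.3% and 26.9%. MS4A3 rose after shEZH2 (0.94) and with sgcMyc (2.46), and PRTN3, a neutrophil protease, by 0.24, 1.22 and 3.09 in the 3 comparisons. Their sums were 3855 to 3908 CPM in shEZH2 libraries, against 3262 to 3473 CPM in EV libraries, and 9555 to 9823 CPM with guide 1 and 8622 to 9667 CPM with guide 5, against 2763 to 2798 CPM in sgEV libraries. In EOL-1 they were 1198 to 1252 CPM in sgEZH2 libraries, against 525 to 544 CPM in sgEV libraries. Sums of the members themselves were 2294 to 2340 CPM in shEZH2 libraries, against 2583 to 2735 CPM in EV libraries, and 2559 to 2599 CPM with guide 1 and 2416 to 2643 CPM with guide 5, against 2846 to 2900 CPM in sgEV libraries. In EOL-1 they were 1043 to 1082 CPM in sgEZH2 libraries, against 1031 to 1060 CPM in sgEV libraries. RNASE2 rose in all 3 comparisons, the shEZH2 call being lost with spike-in scaling (adjusted p = 0.0773). Its summed level with RNASE3 in EOL-1 was 73.7 to 79.9 CPM in sgEZH2 libraries, against 41.8 to 42.9 CPM in sgEV libraries. Among markers of other lineages, 1 of 7 for T and NK cells had a row, at 35.4 to 112 CPM over all libraries. For B cells 2 to 3 of 4 had a row, and their sum was 2.20 to 7.69 CPM. For erythroid cells and megakaryocytes 2 to 3 of 9 had a row, with a sum of 9.38 to 46.8 CPM. For epithelial cells and fibroblasts 1 to 2 of 7 had a row, with a sum of 0.33 to 18.0 CPM.

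**Figure D4:**
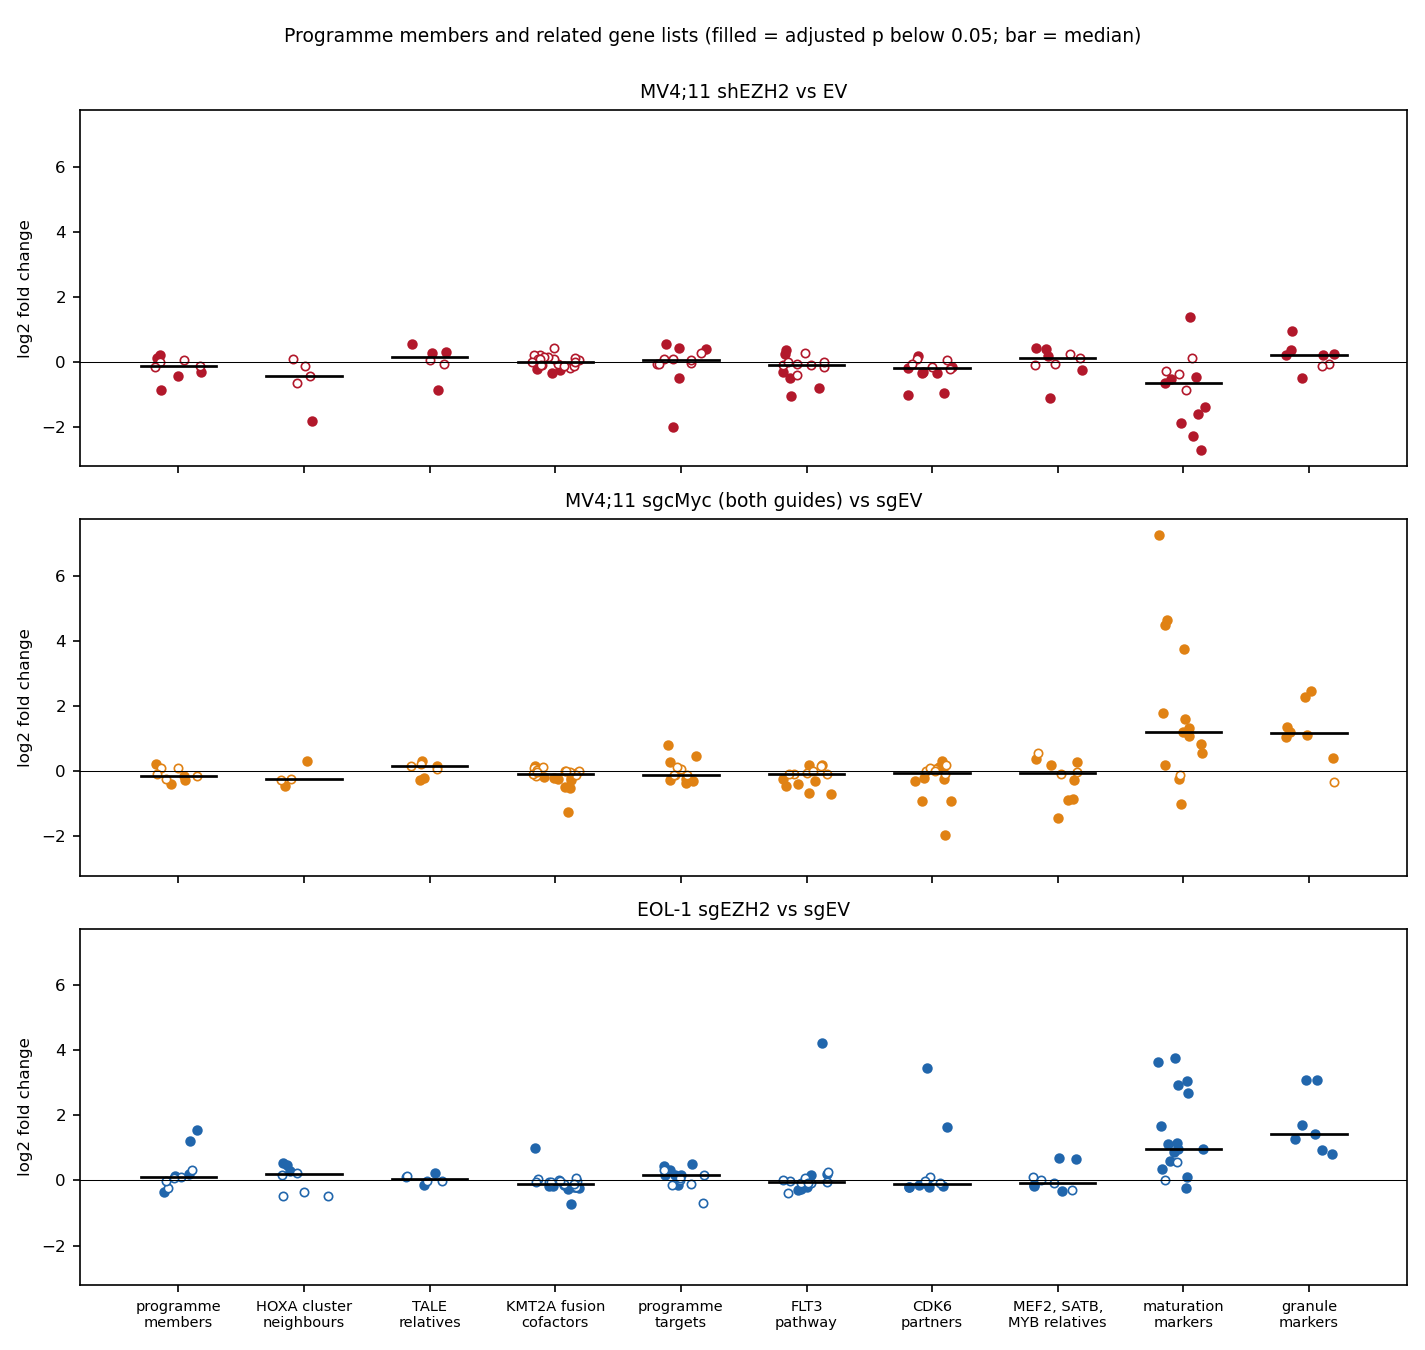
Log2 fold changes of the tested genes of each related gene list (vertical axis, 1 point per gene, bar at the median) in 3 panels: shEZH2 against EV and sgcMyc against sgEV in MV4;11, and sgEZH2 against sgEV in EOL-1. The maturation markers have medians of -0.65, 1.20 and 0.98 in the 3 panels.

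The 8 members compared did not move as a group across the 14 libraries. Each library's log2 CPM was taken as its deviation from the mean of its own controls. HOXA7 and MEIS1 were left out, since a mean of at least 50 estimated counts was required in every table. Pearson's r is given as a description with no test, since values of a library share its depth and scaling. Control libraries deviate around their own mean by construction, so r rests mainly on the treated libraries. Over 28 pairs the median r was 0.012 and 14 pairs were above 0, from -0.68 for HOXA10 with CDK6 to 0.977 for MEF2C with SATB1. Among 9981 genes, those most like MEF2C were RASSF4 (0.991), PKIB (0.980) and NT5DC1 (0.980), and those most like SATB1 were HVCN1 (0.992), ELOVL5 (0.988) and TNFAIP2 (0.984). For FLT3 they were CYTIP (0.987), ACSL4 (0.985) and TBXAS1 (0.983), and for CDK6 AHCTF1 (0.975), SSH1 (0.972) and MIB1 (0.966). For HOXA9 they included RFC4 (0.944) and GPKOW (0.942), and for HOXA10 GOLGA7 (0.952), RALB (0.930) and SLC25A20 (0.927). For PBX3 they were CCDC112 (0.954), FAM127B (0.948) and MAPK8 (0.936), and for MYB TMEM55A (0.949), PIK3R5 (0.938) and GFI1 (0.930). None of the genes named here was another member.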

How the data were processed

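RNA-seq libraries, 14 in all, were made with a NEBNext Ultra II kit, per the labels' protocols. Samples were grouped by title, and the shorter column names of the tables were matched by comparison, target, guide and replicate number. The authors deposited 3 tables with estimated counts per gene (expected counts, which need not be whole) and log2 normalised values, per the file headers. RSEM, DESeq and the build hg19 are named by the submitters' processing notes. For the aligner, annotation, strand use and versions, the sources used here say nothing.

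The estimated counts were rounded. Each table was filtered with filterByExpr and scaled by TMM, and edgeR 4.0.16 (glmQLFit with the robust step, glmQLFTest, R 4.3.3) was run over all its genes. P-values were adjusted by Benjamini-Hochberg, and calls lie below 0.05. The script was tested on simulated data. Differences between effects were interaction contrasts in joint fits. Alternatives used DESeq2 1.42.0 and limma 3.58.1. Intervals cover the fitted spread between libraries. The members, lists and tests were chosen with earlier results of these data known. Named were all members, EZH2, MYC, of each list at most the 4 called genes ranked first by p, and the 3 genes most correlated with each member. A few genes so chosen are not reported here. Promoter sequences came from RefSeq (GRCh38.p14), a later build than hg19, and no coordinates were converted.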

Additional observations from a re-analysis of the deposited data

Results flagged for a closer look

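In 8 cases the effect on a member differed between comparisons by a direct test of the difference with edgeR's quasi-likelihood interaction contrast, over 2 libraries per group. Between the lines, the EZH2 effect in MV4;11 minus that in EOL-1 was -2.39 for MEF2C, -1.52 for SATB1, -0.62 for FLT3 and 0.36 for CDK6 on the log2 scale. MEF2C, SATB1 and FLT3 fell in 2 of 2 shEZH2 libraries and rose in 2 of 2 sgEZH2 libraries, relative to every control library. Within MV4;11, the shEZH2 effect minus the sgcMyc effect was -0.60 for MEF2C, -0.18 for SATB1, -0.25 for MEIS1 and 0.27 for PBX3. No group had the 4 libraries needed to ask whether a single library stood apart from the rest.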

How the results depend on the processing

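FLT3, MEF2C and SATB1 stayed below EV after shEZH2 in all 12 alternatives run, FLT3 below sgEV with sgcMyc in all 14, and MEF2C, SATB1, FLT3 and CDK6 kept their EOL-1 calls in all 12. The differences between lines held in all 14 for MEF2C, SATB1 and FLT3, and that between shEZH2 and sgcMyc in all 17 for MEF2C. The number of members called changed in each of the 8 comparisons under at least 1 alternative, and the cause was not tested. For shEZH2 it was 3 with spike-in scaling, 3 with DESeq2 and 3 to 6 leaving out a library, against 5. For sgcMyc it was 2 with spike-in scaling and 2 to 7 leaving out a library, against 4. For guide 1 it was 5 with a replicate block, 7 with only that guide and sgEV and 1 to 7 leaving out a library, against 3. For guide 5 it was 2 with spike-in scaling and 2 to 6 leaving out a library, against 4. It ranged from 0 to 2 for guide 5 minus guide 1, against 0, and from 2 to 5 for shEZH2 minus sgcMyc, against 4. Leaving out a library, it was 4 to 5 in EOL-1, against 5, and 3 to 4 for the difference between lines, against 4.

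Direction turned only for values that had not passed. With spike-in scaling PBX3 came to 0.043 for sgcMyc, 0.0063 for guide 1 and 0.080 for guide 5, HOXA10 to 0.029 and MEF2C to 0.053 for guide 5 minus guide 1, and MYB to -0.15 for shEZH2 minus sgcMyc. Leaving out a library gave ranges across 0. For shEZH2 they were -0.011 to 0.13 for HOXA10 and -0.11 to 0.089 for CDK6. For guide 5 the range was -0.36 to 0.00029 for CDK6. For guide 5 minus guide 1 they were -0.071 to 0.012 for HOXA10, -0.011 to 0.033 for PBX3, -0.063 to 0.29 for CDK6 and -0.089 to 0.057 for MEF2C. For the difference between the lines they were -0.11 to 0.032 for HOXA10 and -0.055 to 0.0054 for MYB. For shEZH2 minus sgcMyc they were -0.064 to 0.014 for HOXA9 and -0.015 to 0.028 for MYB.

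Spike-in scaling moved the median of all genes to 0.11 for sgcMyc and -0.16 for shEZH2 minus sgcMyc. Of the genes called, the share that was higher was 36.4% with spike-in scaling and 48.5% with TMM for shEZH2, and 72.8% and 49.8% for sgcMyc. It was 67.3% and 50.2% for guide 1, 78.3% and 50.3% for guide 5, and 22.2% and 46.9% for shEZH2 minus sgcMyc. Guide 5 minus guide 1 had only 1 gene called with spike-in scaling, which was lower, and 57 with TMM, of which 19.3% were higher. DESeq2 called 1844 genes for shEZH2, against 3758 with edgeR, 3219 against 5203 for sgcMyc, 1870 against 3738 in EOL-1, 2041 against 3593 for the difference between lines and 2630 against 4654 for shEZH2 minus sgcMyc. Libraries sharing a replicate number did not deviate together in every pair (r from -0.253 to 0.285), so the numbers were not taken to pair them. With the replicate block, 6 members passed for shEZH2, 5 for sgcMyc, 5 for guide 1, 5 for guide 5, 5 in EOL-1, 4 for the difference between lines and 5 for shEZH2 minus sgcMyc. A block with crossed numbers in EOL-1, chosen after seeing the data, called 3923 genes, against 3738. The limma fit was not run for either difference between effects, as the tables were normalised separately, and spike-in scaling was not run for EOL-1, whose table holds no spike-in rows. The low counts of MEIS1 and HOXA7 in EOL-1 limit what could be detected there.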
